A study of Homo sapiens with 6 samples.

Results

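Replication-dependent histone genes were followed in PANC-1, a cell line long established from a human pancreatic carcinoma. The rule took every gene of the deposited table named H1-1 to H1-5, or H2AC, H2BC, H3C or H4C followed by digits alone, without pseudogenes. It found 65 of 60612 genes: 5 for the linker histone H1, 16 for H2A, 17 for H2B, 13 for H3 and 14 for H4. One group of 3 libraries came from PANC-1 cells exposed for 24 h to D(+)-raffinose pentahydrate at 50 µM. The other group of 3 libraries came from PANC-1 cells without the compound, and their labels give no vehicle and no time. Raffinose is a plant trisaccharide. Whether libraries of one group stem from separate cultures is not said, so a p-value here covers only the spread among these 6 libraries, and that spread may be technical. The series title concerns the PI3K/AKT pathway, apoptosis and proliferation.

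These genes supply the histones that package new DNA, and their transcripts accumulate in S phase and decay when replication stops. They lie in clusters with many copies of each gene, have no introns in their usual form, and most of their mRNAs end in a conserved stem-loop in place of a poly(A) tail. The stem-loop is bound by SLBP, and the end is cut with help from the U7 small nuclear ribonucleoprotein. Per the labels' protocols these libraries were made from poly(A) RNA, so a transcript that ends at the stem-loop would be poorly captured. The values below are therefore levels in poly(A) RNA, not of all histone mRNA. In bulk libraries fewer cells in S phase and less RNA per cell cannot be told apart.

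The members sit in 2 clusters in the coordinates of the deposited table. On chromosome 6, 54 members lie between 25726063 and 27893891, and on chromosome 1, 11 members lie between 149782689 and 149887965. Which genome build the table used is not given. Of the 63 members whose identifier occurs in GENCODE 29 (GRCh38), 29 have the same start there.

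The stem-loop is shown because it is the feature that sets these transcripts apart. It was found in the GENCODE 29 transcripts of 27 members, in 5 forms, and the form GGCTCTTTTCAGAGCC occurred in 15 of them. In the windows below, read 5′ to 3′ as DNA, the capitals mark the stem-loop. Members with the highest mean level of their class and a stem-loop in the annotation were chosen.
H2AC6: acccaaaGGCTCTTTTCAGAGCCcccctac
H2BC5: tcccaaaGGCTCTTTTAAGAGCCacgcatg
H3C10: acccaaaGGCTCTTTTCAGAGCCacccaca
H4C14: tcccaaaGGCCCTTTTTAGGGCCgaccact
In 18 of the 27 members an annotated transcript ran at least 200 bases beyond the stem-loop, a limit set after the distances had been seen. Among these were H2AC6, with 1128 bases beyond it, H2BC21 with 1729, H4C14 with 1167 and H3C10 with 769. The other 9 ended sooner, such as H2BC5 after 39 bases and H2AC18 after 35. The 36 other members found in GENCODE 29 had no stem-loop in their annotated transcripts. For H2BC12 and H1-2, among others, the annotated transcript held only the coding sequence, of 381 and 642 bases. A stem-loop beyond that end could not be found, so whether such genes have one is not known from this search.

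The promoters of the 5 classes differed in the motifs they held. RefSeq promoters of GRCh38.p14, each 250 bases before and 50 after the start, were matched to 60 members and searched on both strands for 4 motifs. The stretches below are the 200 bases before the start of the member with the highest mean CPM in each class, and capitals mark any of the 4 motifs.
H1-2, chr6:26056471-26056670, minus strand: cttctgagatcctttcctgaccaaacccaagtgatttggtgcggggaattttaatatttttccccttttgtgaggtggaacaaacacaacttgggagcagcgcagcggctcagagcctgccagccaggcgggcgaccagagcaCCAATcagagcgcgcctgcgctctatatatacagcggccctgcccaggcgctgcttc
H2AC6, chr6:26123972-26124171, plus strand: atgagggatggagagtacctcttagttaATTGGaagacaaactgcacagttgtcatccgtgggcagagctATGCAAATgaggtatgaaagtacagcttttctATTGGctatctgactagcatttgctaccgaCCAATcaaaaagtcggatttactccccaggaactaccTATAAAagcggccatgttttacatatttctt
H2BC12, chr6:27146856-27147055, minus strand: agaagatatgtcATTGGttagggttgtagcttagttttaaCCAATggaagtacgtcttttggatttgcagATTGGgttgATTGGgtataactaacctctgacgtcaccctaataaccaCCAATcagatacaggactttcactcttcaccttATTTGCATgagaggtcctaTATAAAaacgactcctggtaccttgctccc
H3C10, chr6:27809851-27810050, plus strand: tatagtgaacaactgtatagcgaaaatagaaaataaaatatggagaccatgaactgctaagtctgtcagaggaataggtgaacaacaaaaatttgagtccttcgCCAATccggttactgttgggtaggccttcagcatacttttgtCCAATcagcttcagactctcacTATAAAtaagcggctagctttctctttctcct
H4C14, chr1:149832457-149832656, plus strand: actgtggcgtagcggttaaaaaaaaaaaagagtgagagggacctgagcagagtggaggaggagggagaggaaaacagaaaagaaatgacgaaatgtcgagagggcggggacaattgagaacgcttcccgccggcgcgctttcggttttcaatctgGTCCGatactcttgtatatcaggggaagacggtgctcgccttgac
The octamer ATTTGCAT, the letters read by the factor POU2F1, occurred in 14 of 17 H2B promoters and 11 of 15 H2A promoters. It occurred in 0 of 12 H4 promoters and in 1.77% of all 35116 RefSeq promoters. Many H2A and H2B genes lie head to head with nearby starts, so the windows of such partners overlap. The same site can then count in both classes, for this and the other motifs, and the H2A and H2B counts are not independent. The letters CGGAC, part of the site of the H4 promoter factor HINFP, occurred in 11 of 12 H4 promoters, 1 of 17 H2B promoters and 28.9% of all promoters. A CCAAT box, the letters CCAAT, was present in all 48 promoters of the other 4 classes that were matched, in 3 of 12 H4 promoters and in 34.6% of all promoters. The TATA box letters TATAAA were found in 42 of the 60, against 11.5% of all promoters. A match is a description of letters and not evidence of binding.

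**Figure D1:**
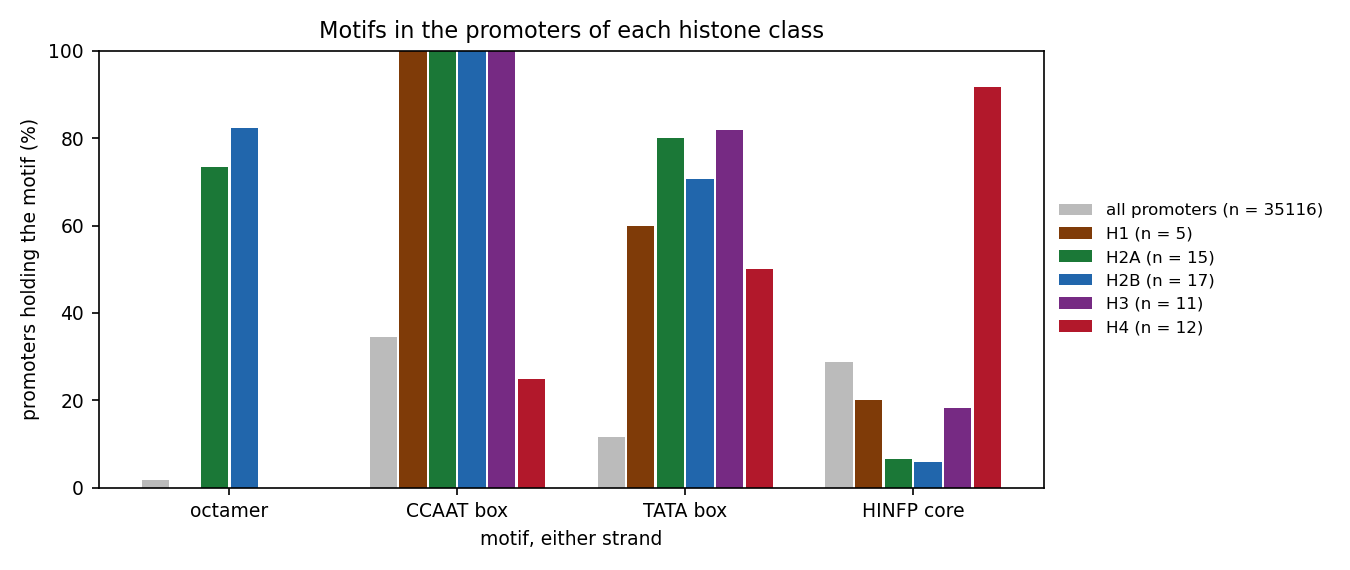
Share of promoters (%) that hold each of 4 motifs on either strand, for all 35116 RefSeq promoters (grey) and for the matched members of each histone class (colours, with n in the key). The octamer is seen in H2A and H2B promoters and at 0% in H1, H3 and H4, while the HINFP core letters stand at 91.7% in H4.

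Most members were low in these libraries. In FPKM, which scales counts by gene length and depth, 14 of 65 members had a mean of at least 1 over the 6 libraries, and 8 had a count of 0 in every library. Those at 0 were H1-1, H2AC1, H2AC15, H2BC1, H2BC9, H3C7, H4C6 and H4C7. H2AC1 and H2BC1 encode the testis forms of H2A and H2B. Counts of 4 were far more common in the table than counts of 3 or 5, so 1 count is not 1 read pair. The limit that a count of 0 allows was therefore set at 12 counts, 3 times this step, which is 0.186 to 0.203 CPM (counts scaled to library size) by library and covers counting error only. Total counts per library ran from 59723420 to 66063664.

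H2BC12, an H2B gene, had the highest level by length, at a mean of 35.2 FPKM. H1-2, which encodes the linker histone H1.2, followed at 9.75 FPKM, then H2BC5 at 8.13, H2AC18 at 6.53 and H2AC19 at 5.71 FPKM. The highest H4 gene was H4C12 at 1.504 FPKM, and the highest H3 gene was H3C3 at 0.808 FPKM. H4C9 was close to H4C12, at 1.404 FPKM, and H4C12 shares its coding sequence with H4C11, so its lead is uncertain. In CPM the highest H4 gene was H4C14, at a mean of 3.11. On the CPM scale 4 genes, H2BC12, H1-2, H2BC5 and H2AC6, held 50.1% of the summed level of all 65, and the 10 highest held 74.6%. Some histone variants, which are made outside S phase from polyadenylated mRNA, were far higher by length. H2AZ1, a variant of H2A, had a mean of 204 FPKM.

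H2A and H2B genes often lie head to head, with a shared stretch between their starts, and 10 such pairs were found with starts 215 to 292 bases apart. In 8 of the 9 pairs with both genes tested, the mean FPKM of the partners was within 3.14-fold. H2BC12 was the exception, at 35.2 FPKM beside 0.730 FPKM for H2AC12, a 48.2-fold difference in level. The fold changes of the partners had the same sign in 3 of these 9 pairs and opposite signs in 6.

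With raffinose, 0 of the 44 members that passed the filter on low counts changed by edgeR's quasi-likelihood test at a Benjamini-Hochberg adjusted p under 0.05. Over all 18863 genes tested the called share was 0.122%, with 7 genes higher and 16 lower, so a count of 0 among 44 does not set these genes apart. At an unadjusted p under 0.05, 4 members were higher and 1 was lower, against 6.21% and 7.08% of all genes. DESeq2 also called 0, over the 17 members for which it gave an adjusted p, beside 1.76% of all genes higher and 2.83% lower. The members tested were 3 H1, 11 H2A, 13 H2B, 8 H3 and 9 H4 genes. The other 21 were too low to test.

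As a description, 28 of the 44 had a positive log2 fold change and 16 a negative one, with a median of 0.23. Over all genes tested 51.0% were positive, with a median of 0.0059. The median of the members was 0.07 without raffinose replicate 2, 0.14 without untreated replicate 3 and 0.10 on log2(FPKM + 1). The medians by class were 0.29 for H1, 0.18 for H2A, 0.01 for H2B, 0.37 for H3 and 0.26 for H4. In 7 members all raffinose libraries were above all untreated ones, and in 3 all were below. Those shares of the 44 are 15.9% and 6.82%, beside 10.6% and 10.9% of all genes. H2AC7, among the 7, and H4C11, among the 3, passed the filter on low counts only through the group where they were high. The shares are therefore a description and support nothing. The 19 members with a mean count of at least 40 had fold changes between -0.12 and 0.62, while the 25 below that ranged from -2.89 to 1.84, with a median standard error (SE) of 0.62.

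**Figure D2:**
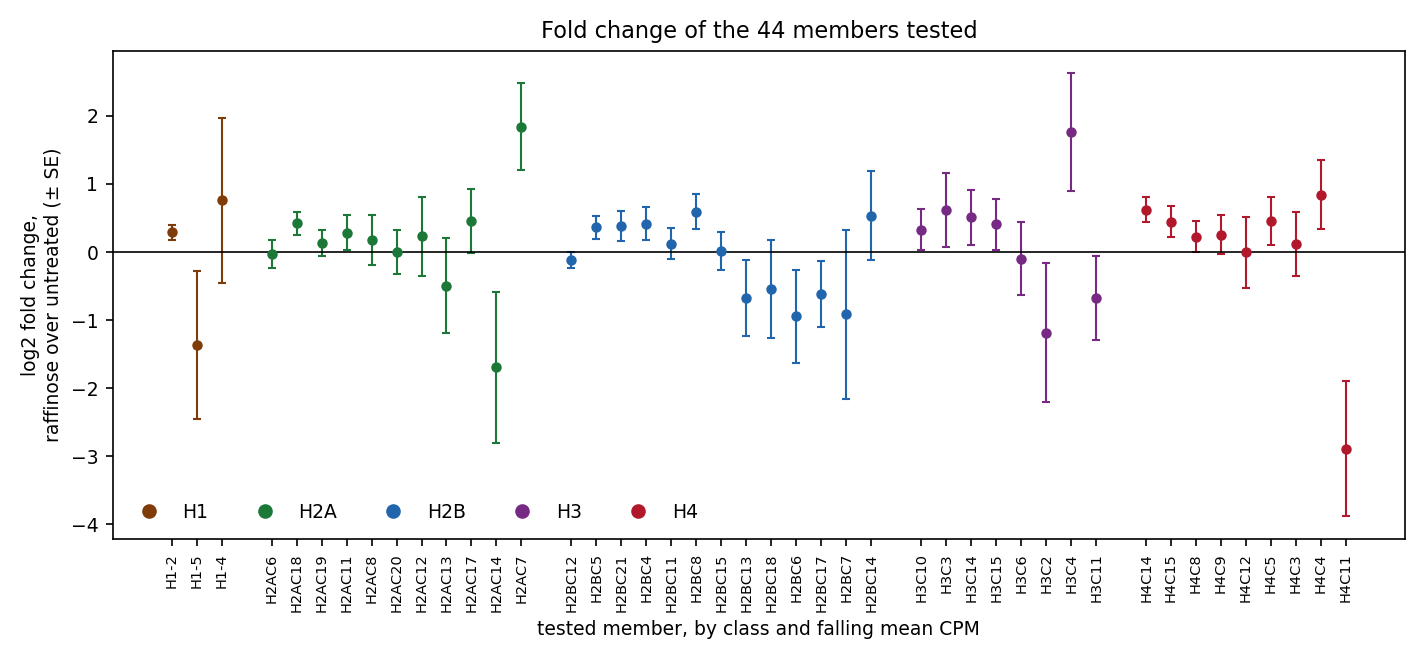
Log2 fold change, raffinose over untreated (vertical axis), with its standard error (bars) from edgeR for the 44 members tested, in order of class and falling mean CPM. The bars widen toward the low genes on the right of each class, and none of the 44 passed the adjusted threshold.

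Summed over each class, levels were somewhat higher with raffinose for H1, H2A and H4. The H1 sum was 9.48, 10.5 and 9.09 CPM in raffinose replicates 1, 2 and 3 and 8.63, 7.99 and 7.62 CPM in the untreated replicates. The H2A sum was 19.2, 19.6 and 20.1 CPM against 17.9, 17.4 and 17.2 CPM. The H4 sum was 13.8, 16.3 and 14.3 CPM against 12.9, 11.4 and 11.05 CPM. In these 3 classes the groups did not overlap, and the ratio of means was 1.20 for H1, 1.12 for H2A and 1.26 for H4. In FPKM the H4 groups did overlap, at 10.2, 11.03 and 8.76 against 9.61, 8.41 and 7.80, while those of H1 and H2A did not. With H2AC18 and H2AC19 taken out, the groups of the H2A sum in CPM overlapped. With H4C14 and H4C15 taken out, those of the H4 sum in CPM overlapped too. The separation of these 2 classes thus rested on those pairs of genes. The sum over all 65 members overlapped between groups on both scales. In CPM it was 89.4, 99.7 and 85.2 with raffinose and 89.5, 79.6 and 75.7 without. No test was made of these sums, since the members were chosen with earlier results known.

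The H2B and H3 sums overlapped between groups. H2B, the highest class at 49.0% of all member CPM, stood at 44.1, 49.0 and 38.0 CPM with raffinose and 46.3, 39.7 and 37.2 CPM without. H3 was lowest, at 2.90, 4.28 and 3.65 CPM against 3.75, 3.12 and 2.65 CPM. Without H1-2 the log2 ratio of the H1 sum went from 0.26 to -0.41. The other H1 genes had mean levels of 0.170 CPM or less, under the limit given above, so that ratio cannot be read. Without its highest member the ratio went from 0.17 to 0.24 for H2A, 0.09 to 0.29 for H2B, 0.19 to 0.13 for H3 and 0.33 to 0.24 for H4. Raffinose replicate 2 held the highest sum in H1, H2B, H3 and H4. Without it the log2 ratio was 0.20 for H1, -0.00072 for H2B, 0.05 for H3 and 0.26 for H4. With each library left out in turn it ran from -0.00072 to 0.18 for H2B and from 0.05 to 0.32 for H3.

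**Figure D3:**
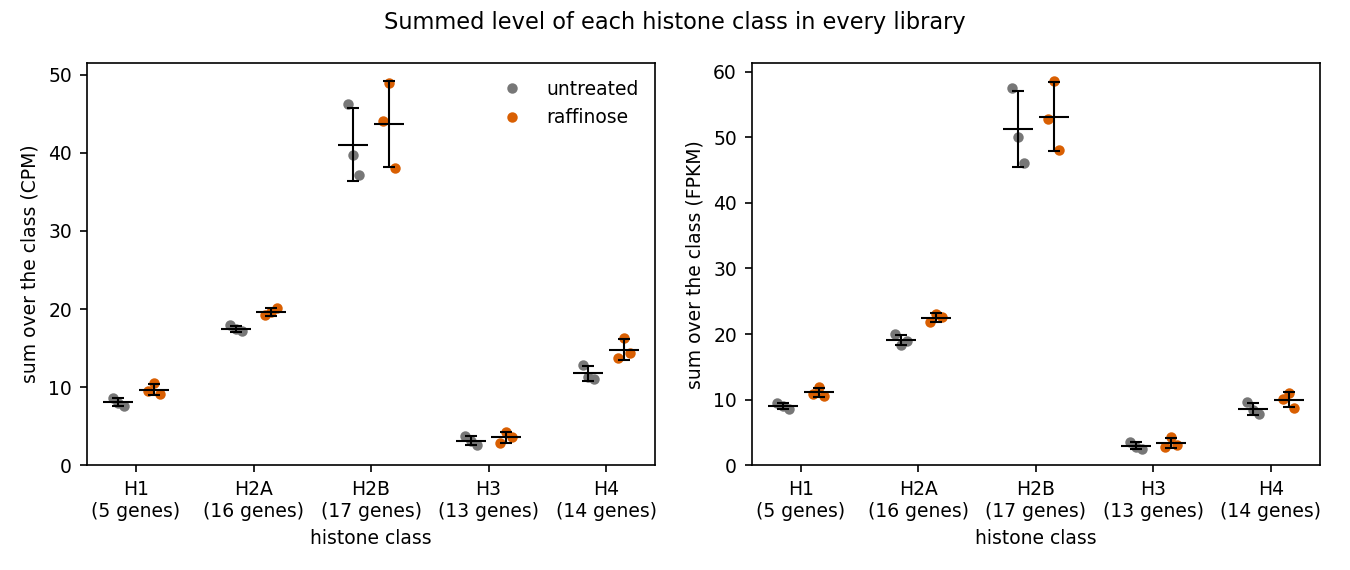
Summed CPM (left) and FPKM (right) of each histone class in every library (points, 3 per group), with the mean and SD (bars); grey is untreated and orange is raffinose. The H1 and H2A points of the groups separate on both scales, those of H4 on the CPM scale alone, and those of H2B and H3 overlap.

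Among linker histones, H1-2 carried nearly all the signal. Its level was 9.38, 9.97 and 8.87 CPM with raffinose and 8.27, 7.60 and 7.20 CPM without. Every raffinose library was above every untreated one. The log2 fold change was 0.29 ± 0.11 (SE), with an edgeR adjusted p of 0.34, and 0.150 to 0.584 over the settings tried. H1-5 and H1-4, which encode the linker histones H1.5 and H1.4, had mean levels of 0.170 and 0.108 CPM, at or under the limit given above. H1-3 was too low to test.

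In the H2A class, H2AC18 and H2AC19 share an identical coding sequence, so reads can be split between them in either way and their single values are uncertain. H2AC18 had 4.54, 4.53 and 5.69 CPM with raffinose and 4.20, 3.24 and 3.58 CPM without, with a log2 fold change of 0.42 (adjusted p = 0.36, edgeR). Their sum was 8.98 ± 0.119 CPM with raffinose and 7.37 ± 0.874 CPM without (SD, n = 3), and the groups did not overlap. H2AC6 had 5.85, 3.93 and 6.17 CPM against 4.83, 5.99 and 5.42 CPM, which overlap. H2AC11, H2AC8, H2AC20, H2AC12 and H2AC13 had log2 fold changes between -0.50 and 0.28, with overlapping groups.

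The smallest p of the H2A class belonged to H2AC7, at 0.422, 0.269 and 0.342 CPM with raffinose and 0.156, 0.0930 and 0.0338 CPM without. All raffinose libraries were above the untreated ones, which lay under the limit of 0.186 CPM. It passed the filter on low counts through the raffinose libraries alone, so its p and its place among the 4 members higher at an unadjusted p support nothing. The fitted log2 fold change of 1.84 (adjusted p = 0.31, edgeR) depends on how such low counts are treated, and over the settings it ran from 0.45 to 2.39. H2AC7 and the H3 gene H3C4 both overlap AL031777 on the same strand, so their reads cannot be told apart from that gene's. H3C4 had 0.422, 0.221 and 0.233 CPM with raffinose and 0.187, 0.0155 and 0.0507 CPM without, with an adjusted p of 0.45 (edgeR). Of its untreated libraries only replicate 1 reached the filter level of 0.158 CPM. H3C4 thus passed mainly through the raffinose libraries, and its values support nothing.

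In the H2B class, H2BC12 had 19.7, 21.7 and 18.9 CPM with raffinose and 25.1, 20.98 and 19.3 CPM without. The groups overlapped, with a log2 fold change of -0.12 ± 0.12 (SE). H2BC5 had 9.79, 10.9 and 8.05 CPM against 8.67, 7.10 and 6.55 CPM, which also overlap (log2 fold change 0.36, edgeR adjusted p = 0.41). H2BC8 had 2.51, 1.39 and 1.79 CPM against 1.15, 1.27 and 1.35 CPM, without overlap (log2 fold change 0.59, edgeR adjusted p = 0.39). H2BC21, H2BC4, H2BC11 and H2BC15 had log2 fold changes of 0.39, 0.42, 0.12 and 0.01, and H2BC13 had -0.68, all with overlapping groups. H2BC17, named after its values were seen, was lower in every raffinose library, at 0.125, 0.190 and 0.171 CPM against 0.249, 0.295 and 0.203 CPM. Reads of H2BC5 and H2BC15 may come in part from overlapping genes on either strand, since whether counting used the strand is not given.

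**Figure D4:**
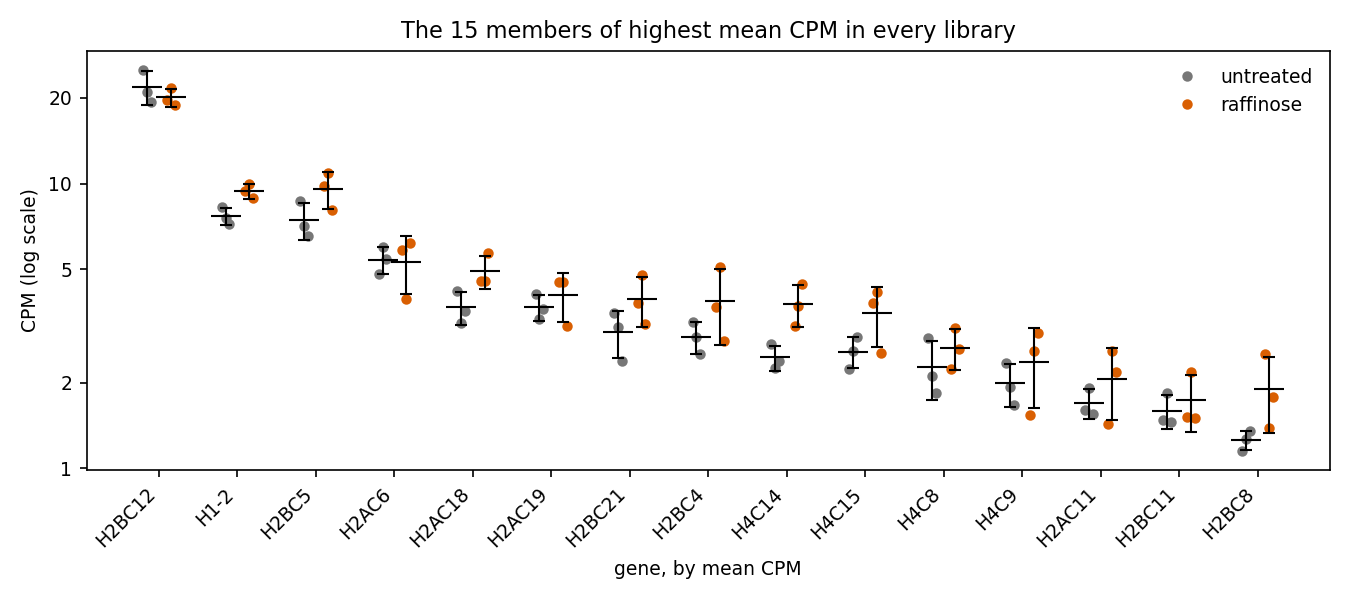
CPM on a log axis for the 15 members of highest mean CPM, in each untreated (grey) and raffinose (orange) library, with the mean and SD (bars). H2BC12 stands near 20 CPM in both groups, and the points of the groups separate for H1-2, H2AC18, H4C14 and H2BC8.

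The H3 genes were the lowest of the core histones. H3C10, the highest of them in CPM, had 0.734, 1.34 and 1.06 CPM with raffinose and 0.950, 0.682 and 0.862 CPM without, and the groups overlapped (log2 fold change 0.33). H3C3 had a log2 fold change of 0.61, H3C6 of -0.10, H3C11 of -0.67 and H3C2 of -1.19, each with an SE of at least 0.54. Without raffinose replicate 2 that of H3C3 was -0.10. H3C2 was lower in every raffinose library, at 0.187, 0.237 and 0 CPM against 0.436, 0.248 and 0.287 CPM. H3C14 and H3C15 share an identical coding sequence and had equal counts in 5 of 6 libraries, so their values are not independent. Each overlaps an H4 gene, H4C14 and H4C15, on the opposite strand.

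H4C14 had the smallest p of the 44 members tested. Its level was 3.17, 3.71 and 4.44 CPM with raffinose and 2.72, 2.25 and 2.38 CPM without. The raffinose libraries were all above the untreated ones, with a log2 fold change of 0.62 ± 0.18 (SE). Its adjusted p was 0.25 by edgeR and 0.0941 by DESeq2. H4C15, whose coding sequence and 300-base promoter are identical to those of H4C14, had 3.81, 4.15 and 2.55 CPM against 2.24, 2.59 and 2.89 CPM, which overlap. Since reads can fall to either copy, their sum is the safer value. It was 6.98, 7.87 and 6.99 CPM with raffinose and 4.97, 4.84 and 5.27 CPM without, a ratio of 1.45 with no overlap. This ratio was not tested, and the pair was noticed after the values were seen.

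The other H4 genes had smaller fold changes or low levels. H4C8 and H4C9 had log2 fold changes of 0.23 and 0.26 with overlapping groups, and H4C12, H4C3 and H4C4 of -0.0053, 0.12 and 0.84, also with overlap. H4C5 had 0.656, 0.616 and 0.684 CPM with raffinose and 0.296, 0.558 and 0.574 CPM without, which do not overlap (log2 fold change 0.45, edgeR adjusted p = 0.64). H4C11, named after its values were seen, had 0.141, 0 and 0.0311 CPM with raffinose, under the limit, and 0.327, 0.527 and 0.456 CPM without (log2 fold change -2.89, edgeR adjusted p = 0.31). It passed the filter through the untreated libraries alone, so these values, and its place as the 1 member lower at an unadjusted p, support nothing. It shares its coding sequence with H4C12, and the sum of the pair overlapped between groups, at 0.767 ± 0.217 against 1.15 ± 0.394 CPM (SD, n = 3).

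Genes that make, process and package histone mRNA and protein showed no called change. Of 13 genes that act in transcription of histone genes at S phase, 21 in 3′ end processing, 17 in histone mRNA decay and 21 histone chaperones and importers, all were tested and 0 passed in either direction by edgeR. Medians of the log2 fold change were -0.01, -0.04, -0.05 and -0.05 in that order, beside 0.0059 over all genes. At an unadjusted p under 0.05 the count was 0 higher in each list, and 2, 2, 1 and 3 lower. Over all genes 6.21% were higher and 7.08% lower at that threshold. SLBP, the stem-loop binding protein, had 109, 89.8 and 94.7 CPM with raffinose and 102, 99.8 and 108 CPM without. NPAT, the coactivator of histone gene transcription, had 29.2, 20.3 and 27.9 CPM against 16.5, 22.3 and 23.3 CPM. Both overlapped between groups.

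None of the other genes named from these lists passed the test. CASP8AP2, which acts with NPAT and in 3′ end cutting, had a log2 fold change of 0.16, HINFP of -0.01, CCNE1 of -0.13, CCNE2 of 0.11 and CDK2 of 0.09. The U7 proteins LSM10 and LSM11 had 0.03 and 0.02, and ZNF473, a U7 partner, 0.04. ERI1, a nuclease that trims and degrades histone mRNA, had -0.13, and TUT7, which adds uridines to it, 0.05. The chaperones CHAF1A, CHAF1B, ASF1B and NASP had -0.07, -0.11, 0.01 and 0.03. The smallest p of the chaperone list were those of SSRP1, a subunit of FACT, MCM2, a helicase subunit that binds H3 and H4, and TONSL, with -0.15, -0.32 and -0.18 and edgeR adjusted p of 0.24 to 0.32. In the other lists the genes of smallest p were CDC25A, which activates CDK2, at -0.17 and E2F1, an S phase transcription factor, at -0.16. SYMPK, SRRT and SNRPE of 3′ end processing had -0.13, -0.16 and -0.15, and EXOSC10, LSM4 and LSM5 of decay had -0.12, -0.19 and -0.19.

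In a list of 25 genes of DNA replication and S phase, 1 fell and 0 rose by edgeR, beside 0.0848% and 0.0371% of all genes. The count lower was 0 without raffinose replicate 2, without untreated replicate 1 and without untreated replicate 3. By DESeq2 it was 3, beside 2.83% of all genes to which DESeq2 gave an adjusted p. Of the 25, 21 had a negative log2 fold change, with a median of -0.11, while the histone members had a median of 0.23. MCM5 and MCM7, subunits of the replicative helicase, had log2 fold changes of -0.36 and -0.28, with edgeR adjusted p of 0.12 and 0.15 and DESeq2 adjusted p of 0.0012 and 0.014. PCNA, the sliding clamp, had -0.07 and overlapped.

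Of 14 listed genes of histone variants, all tested, 0 passed by edgeR. At an unadjusted p under 0.05, 2 were higher and 1 lower, beside 6.21% and 7.08% of all genes. DESeq2 called 1 higher and 0 lower, beside 1.76% and 2.83% of all genes to which it gave an adjusted p. H2AX, the variant phosphorylated at DNA breaks, had 95.1, 96.0 and 88.5 CPM against 122, 101 and 106 CPM, lower in every raffinose library (log2 fold change -0.24, edgeR adjusted p = 0.32). H3-5 had a log2 fold change of 0.47, H2AZ1 of 0.04, H3-3A of 0.10, H3-3B of 0.26 and H1-10 of -0.09, none of which passed.

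Of 27 other RNAs known to lack a poly(A) tail, 7 passed the filter. The CPM summed over all 27 was 5.81 to 8.72 with raffinose and 5.55 to 6.32 without, which overlap. SNORD3A, the small nucleolar RNA U3, had 1.51, 2.18 and 1.04 CPM against 0.747, 0.264 and 0.862 CPM (log2 fold change 1.34, edgeR adjusted p = 0.33). It was higher in every raffinose library. RPPH1 and RN7SL1, the RNAs of RNase P and the signal recognition particle, had log2 fold changes of 0.47 and -0.17 and overlapped. Their part in the histone values was not tested.

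The libraries held the keratins of carcinoma epithelium. The sum of 5 such markers was 3463 to 3805 CPM with raffinose and 4636 to 5716 CPM without, nearly all of it KRT8 and KRT18, while KRT19 and EPCAM were under 1 CPM. All 5 acinar markers were at 0. Of 4 leukocyte markers CD3E was at 0 and PTPRC under 0.2 CPM, and the sum, mostly CD68, was 17.5 to 24.0 CPM against 33.1 to 41.3 CPM. Fibroblast markers, mostly COL1A1, summed to 40.3 to 45.3 CPM against 35.1 to 38.3 CPM, and 3 endothelial markers to at most 0.265 CPM. Duct markers, nearly all SOX9, summed to 52.3 to 54.5 CPM against 59.9 to 66.5 CPM. The part of these shifts in the histone values was not tested.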

How the data were processed

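Poly(A) RNA of 6 libraries was sequenced as strand-marked read pairs, per the labels' protocols. The deposited table holds, per the file headers, FPKM and estimated counts for 60612 genes. Tools named in the submitters' processing notes are StringTie 1.3.4d, HISAT2 2.0.4, cutadapt 1.9, DESeq2 and edgeR; their roles, the build, the annotation and the strand setting were not stated. A deposited FPKM of 0.0001 stands for a count of 0 and was taken as 0 in sums.

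The deposited counts, already whole, were tested with edgeR 4.0.16 in R 4.3.3: filterByExpr with a minimum count of 10, TMM scaling, glmQLFit and glmQLFTest, Benjamini-Hochberg adjustment over 18863 genes, called under 0.05. CPM values are TMM-scaled. Alternatives were DESeq2 1.42.0, limma 3.58.1 on log2(FPKM + 1) and log2(FPKM + 0.1), other scalings, no filter, counts divided by 4, the replicate number as a block and each library left out. On simulated counts for this comparison over 18863 genes, the share of changes found by edgeR was 6% at 1.5-fold, 48% at 2-fold, 72% at 4-fold and 74% at 8-fold, with 8 false calls. DESeq2 found 20%, 60%, 80% and 82% at those sizes, with 71 false calls. The changed genes were drawn from all genes tested, whose median SE in the main fit was 0.17, against 0.44 for the members. These shares therefore do not give the recovery for the members.

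The members and lists were chosen with earlier results of these data known. Genes named are the 8 of highest mean CPM among the tested members of each class, the member with the smallest p in each, a fixed set of histone regulators and variants, and in each other list the called genes and the 3 with the smallest p. Some genes that this rule takes are not reported here, though counts over their lists include them. Any other is said to be chosen after its values were seen. Where 2 rows share a symbol the row with more counts was used. Stem-loops were searched in GENCODE 29 transcripts.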

Additional observations from a re-analysis of the deposited data

How the results depend on the processing

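No histone gene was called under any of the 14 alternatives, with the smallest adjusted p of a member from 0.0941 to 0.474. Replicate numbers did not pair the libraries: deviations of those numbered 1, 2 and 3 correlated at -0.012, -0.071 and 0.021. With the replicate number as a block, 0 genes were called higher and 0 lower, the S phase list held 0 called genes, and fold changes of H3C6, H4C12 and H2BC20P turned to 0.019, 0.15 and 0.074. Over the whole table, calls were 254 higher and 409 lower by DESeq2, 11 higher with counts divided by 4 and 11 higher on log2(FPKM + 0.1), against 7 and 16. With 1 library left out they ran from 0 to 15 higher and 4 to 13 lower. The cause was not tested.

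The median of the members was 0.099 on log2(FPKM + 1) and 0.071 to 0.34 with 1 library left out, and 17 members were positive with counts divided by 4, where fewer were tested. Without its highest member, the log2 ratio of a class sum was -0.41 for H1, 0.24 for H2A and 0.29 for H2B, and the H2A ratio in FPKM was 0.24. That of H1 then rests on genes too low to be read.

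Some genes changed sign. On log2(FPKM + 1) the log2 fold change was 0.0023 for H2AC20, 0.0012 for H2AC6, 0.0017 for H3C6, 0.077 for H4C12, 0.017 for HINFP and 0.021 for H2BC20P. On log2(FPKM + 0.1) it was 0.033 for H3C6, 0.17 for H4C12, 0.026 for HINFP and 0.083 for H2BC20P. H2AC20 had 0.0055 with upper quartile scaling and H4C12 0.023 with counts divided by 4. With 1 library left out the ranges were -0.19 to 0.91 for H2AC12, -0.13 to 0.19 for H2AC20, -0.15 to 0.15 for H2AC6, -0.13 to 0.45 for H2AC8, -0.076 to 0.24 for H2BC11, -0.14 to 0.20 for H2BC15, -0.10 to 0.89 for H3C3, -0.45 to 0.16 for H3C6, -0.29 to 0.72 for H4C12, -0.099 to 0.47 for H4C3 and -0.34 to 0.55 for H2BC20P. Outside the histone members they were -0.066 to 0.080 for ASF1B, -0.16 to 0.0012 for H1-10, -0.11 to 0.19 for H2AZ1, -0.080 to 0.053 for HINFP, -0.089 to 0.11 for LSM10, -0.076 to 0.075 for LSM11, -0.036 to 0.11 for NASP, -0.14 to 0.034 for PCNA and -0.059 to 0.18 for TUT7. Members under about 0.2 CPM are too low for a fold change to be read.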

Other observations

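2 pseudogenes of H2B lay outside the rule but had counts as high as the higher members, and both were chosen after their values were seen. H2BC19P had 11.8, 11.6 and 9.07 CPM with raffinose and 9.02, 7.71 and 7.79 CPM without. H2BC20P had 7.90, 9.13 and 10.8 CPM with raffinose and 17.03, 6.30 and 6.39 CPM without, so untreated replicate 1 stood far above the other 2. H2AW, also chosen after its values were seen, is an H2A gene the rule does not take under that name. It had 1.12, 1.23 and 1.60 CPM with raffinose and 1.99, 1.09 and 1.49 CPM without.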
